A study of Mus musculus with 8 samples.

Results

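Cirbp and 6 RNA-binding proteins of cold response and muscle splicing (Rbm3, Rbm24, Rbm20, Mbnl1, Mbnl2 and Celf1) were read in single myocardial cells of the mouse heart tube from embryos with and without mesodermal deletion of Sox17. The 7 genes are 7 of 24336 gene names on the array, and all 14 probes that carry these names were used, of 55681 probes in all. Cirbp was selected on its own measured signal, present in WT and lost in KO cells of these same arrays, so its difference between genotypes is given as a description, and the other 6 genes were added as its closest relative and as regulators of heart and skeletal muscle splicing. Each array held the amplified cDNA of a single cell from a heart tube at embryonic day 8.5 with 9 somites. Of the 8 cells, 4 came from embryos that were Mesp1+/+ with Sox17flox/flox (WT) and 4 from embryos that were Mesp1Cre/+ with Sox17flox/flox (KO). Both genotypes therefore carried the homozygous floxed Sox17 allele, and the Cre allele, which drives recombination in nascent mesoderm from the Mesp1 locus, was present in KO embryos only. According to the study's methods the cells came from the ventricle, and their cell type was assigned by PCR of marker genes in each cDNA. The labels tie no cell to an embryo, so each genotype counts as 1 sample of 4 cells. No test or p-value is given, and every SD is the spread between cells.

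CIRBP and RBM3 are small glycine-rich proteins with an RNA recognition motif whose transcripts rise under mild hypothermia and which bind messenger RNA to alter its stability and translation. RBM24, RBM20 and the MBNL and CELF families choose the exons of sarcomere, calcium-handling and cytoskeletal transcripts in striated muscle. MBNL and CELF proteins often act in opposite directions on the same exons, with MBNL favouring the adult and CELF1 the fetal form, and RBM20 is best known for shortening titin. Heart and skeletal muscle change these exon choices as they mature.

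The probes are 60 bases long, and each reads a short stretch of a transcript. The stretches that the results turn on are shown by their first 30 bases, 5′ to 3′, in lower case throughout because no part is singled out. They are the Cirbp and Rbm24 probes and the probes of Rbm3 and Celf1, which gave different answers for the same gene. Positions refer to mouse build mm9, as the files give them, and all but the Rbm3 probe on X lie on the plus strand.
Cirbp, chr10:79634274-79634333: atttatattgtccttttttaccgaagacat
Rbm24, chr13:46526275-46526334: acttcctacaatggataatttttatggact
Rbm3, first probe on 13, chr13:60743255-60743314: atgacagtcgtcctggaggatatggatatg
Rbm3, second probe on 13, chr13:60743761-60743820: atggccagaaagtgatttctgaatgtacct
Rbm3, probe on X, chrX:7718033-7718092: agttggatggttttctagctgtgtgtgtat
Celf1, first probe, chr2:90855171-90855230: tagtgataagttgagtctgttgtcctctta
Celf1, second probe, chr2:90857133-90857192: cttccaggctttgttcctctgtgtgcttag
Celf1, the third probe, chr2:90858616-90858675: tattatgcttgaggccaccttactaggaag
No probe of another gene name shared a run of 20 bases with any of the 14 probes. The files place a pair of Rbm3 probes on chromosome 13, whereas RefSeq places the gene Rbm3 on X and a pseudogene, Rbm3-ps, on chromosome 1. The array annotation names Rbm3 messenger RNA records of RefSeq for both of these probes, while their position differs from that of the gene. Which Rbm3 copy these probes read is therefore uncertain. Exon and UTR annotation in mm9 was not used here.

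The known cold response of Cirbp runs in part through a short promoter element, TCCCCGCC, which the factor Sp1 binds. The 250 bases before the first Cirbp start site of RefSeq (build GRCm38.p6, chr10:80167589-80167838, plus strand) are shown with this element and the CCAAT box, on either strand, in capitals:
Cirbp promoter: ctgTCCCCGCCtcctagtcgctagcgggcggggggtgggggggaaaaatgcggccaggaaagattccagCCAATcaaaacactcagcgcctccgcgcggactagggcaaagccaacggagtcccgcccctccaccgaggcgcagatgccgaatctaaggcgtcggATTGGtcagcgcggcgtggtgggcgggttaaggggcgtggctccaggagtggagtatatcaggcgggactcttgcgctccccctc
This window held 1 match to TCCCCGCC and 2 matches to CCAAT, read as ATTGG on the other strand. The letters TCCCCGCC occurred on either strand in 4.64% of 32851 promoter windows of the same length, and CCAAT in 33.8%. The window of the second Cirbp start site held neither. Promoter windows were read for 5 of the 7 genes. In Mbnl2 and in the first of the Mbnl1 windows CCAAT matched 2 times, and neither motif matched in the Celf1 and Rbm24 windows. A match of letters is a description of the window and not evidence of binding.

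The share of all probes well above background, the detection flag of the scanner software, ranged from 19.6% to 26.0% over WT cells and from 17.1% to 24.3% over KO cells, and was lowest in KO cells 2 and 3. The slides matched the genotypes, with the WT arrays on the first and the KO arrays on the second, so an effect of the slide and an effect of the genotype cannot be told apart. Sox17 itself was detected by neither of its 2 probes in any of the 8 cells, so its level does not check the genotype labels in these cells. Each of the 8 cells gave signal for all 10 myocardial markers, in keeping with its labelled cell type. Endothelial markers gave signal for 3 to 4 of 13 genes per WT cell and 2 to 4 per KO cell. Kdr and Plvap were detected in every cell, with log2 means of 9.18 in WT and 9.09 in KO cells for Kdr, and Pecam1 in 4 WT and 2 KO cells, each time below the floor. Egfl7 read 3666 in WT cell 3 and 1273 in KO cell 2, Tie1 and Flt1 were detected in 1 cell each, and the other 7 markers, Cdh5, Tek and Cldn5 among them, in none. The part of these transcripts in the results was not tested. Markers of blood, endoderm and proepicardium were detected in 0 to 2 genes of a list per cell. In the values that follow, a signal is the background-corrected intensity after each array was scaled to a common 50th percentile, with values under 50 set to 50, called the floor. Signals of different probes are not compared with each other.

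Cirbp transcripts gave signal in each of the 4 WT cells and in none of the 4 KO cells. The single Cirbp probe gave signals of 12607, 4011, 3916 and 2877 in WT cells 1 to 4, and all 4 KO cells were at the floor of 50. Before scaling and without a floor, the KO signals were 2.09, 1.82, 2.01 and 1.82. The groups did not overlap, and the dimmest WT cell stood far above every KO cell. On the log2 scale the WT mean was 12.25 ± 0.94 (n = 4 cells) and the KO mean 5.64, a difference of -6.61. Because the KO signal is only a bound, this corresponds to a signal at least 97.7-fold lower in KO cells, taking for each KO cell the floor. Of the 7467 present probes, defined by detection in every cell of WT, of KO or of both, 0.79% shared this detection in all WT and no KO cells (59 probes), and 0.147% had the reverse. The KO cells all lay below the WT cells in 2.26% of present probes and all above them in 3.27%. Cirbp was taken from this class, so these shares place it and do not support it.

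**Figure D1:**
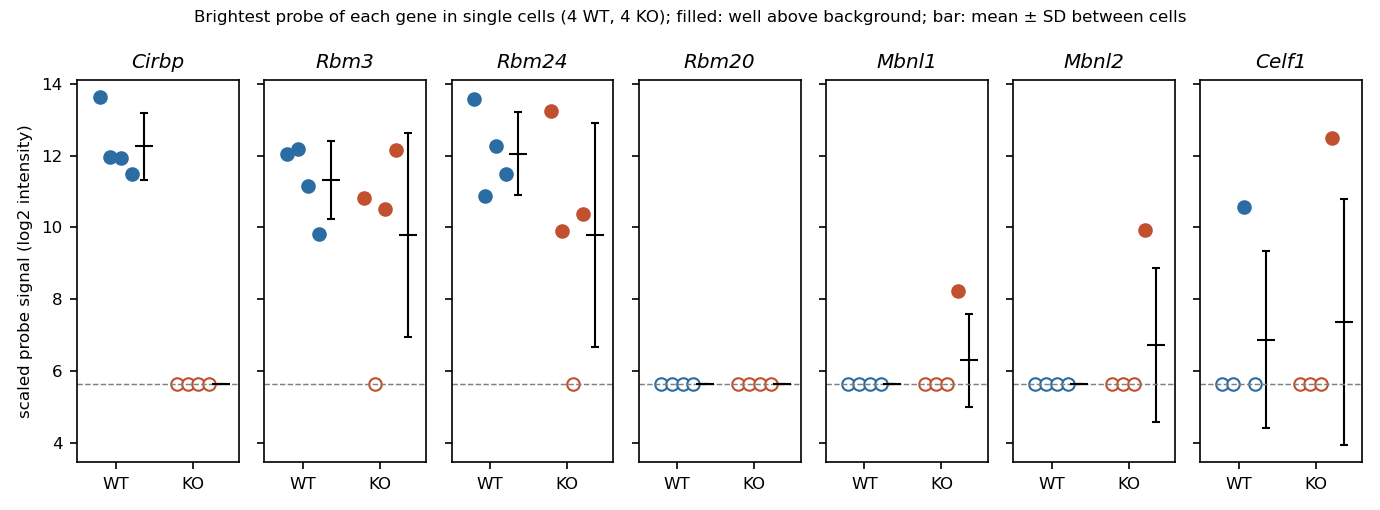
Scaled log2 probe signal of the probe with the highest mean signal of each gene (vertical axis) in 4 WT cells (blue) and 4 KO cells (red), 1 panel per gene. Filled points are well above background, open points are not, the dashed line is the floor of 50 (5.64 on the log2 scale), and the bar is the mean ± SD between cells; Cirbp separates the genotypes, whereas Rbm3 and Rbm24 were detected in 3 KO cells each.

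Rbm3, the closest relative of Cirbp and likewise cold-inducible, was detected in all 4 WT cells and in 3 of 4 KO cells. Its second probe on 13, the probe of highest mean signal, read 4254, 4683, 2287 and 908 in WT cells 1 to 4. It read 1802 in KO cell 1, 1447 in KO cell 3 and 4537 in KO cell 4, and was at the floor in KO cell 2. The 3 KO cells with signal all lay inside the WT range. The log2 means were 11.31 ± 1.09 in WT and 9.78 ± 2.85 in KO cells (n = 4 each), a difference of -1.53 (2.89-fold lower) that was smaller than the SD of the KO cells. Without KO cell 2 the difference was -0.14, so that this cell alone carried most of it, and without KO cells 2 and 3 it was 0.20 with the opposite sign.

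The other Rbm3 probes did not repeat this reading in every cell. The first probe on 13 read 3404, 4899, 1159 and 866 in WT cells, 1682 in KO cell 3 and 4050 in KO cell 4, and was at the floor in KO cells 1 and 2. Its difference of -2.49 (5.60-fold lower) passed 5-fold, and the mean of all 3 Rbm3 probes gave -1.34. In KO cell 1 the second probe was thus far above the floor where the first was not detected. The probe on X, at the position where RefSeq places the gene, was detected in KO cell 1 alone, with an unscaled signal of 11.4 that lay below the floor. All 3 probes were undetected in KO cell 2.

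Rbm24, a muscle splicing factor needed for sarcomere assembly, was also detected in all 4 WT and 3 of 4 KO cells. Its single probe read 12228, 1875, 4946 and 2885 in WT cells 1 to 4. In KO cells 1, 2 and 4 it read 9608, 949 and 1331, and KO cell 3 was at the floor. KO cell 1 lay within the WT range and the other 3 KO cells lay below every WT cell. The log2 means were 12.05 ± 1.17 in WT and 9.79 ± 3.13 in KO cells (n = 4 each), a difference of -2.27 (4.82-fold lower) that was just under 5-fold and did not exceed the SD among KO cells. Leaving out KO cell 3 reduced it to -0.90, leaving out KO cell 1 raised its size to -3.33, and leaving out KO cells 2 and 3 together gave -0.22.

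Rbm20, the titin splicing regulator whose mutations cause dilated cardiomyopathy, was not detected. Both of its probes (chr19:53909212-53909269 and chr19:53940144-53940203) were at the floor in all 8 cells. Absence of signal in amplified cDNA of 4 cells per genotype does not show absence of the transcript.

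The muscleblind-like genes gave signal in few cells. The single Mbnl1 probe (chr3:60433601-60433660) read 301 in KO cell 4 and was at the floor in the other 7 cells, a mean difference of 0.65 on the log2 scale. Mbnl2 was read by 3 probes on chromosome 14. The probe of highest mean signal (chr14:120828398-120828457) read 977 in KO cell 4 and the floor elsewhere, a difference of 1.07. KO cell 4 was the only cell in which all 3 Mbnl2 probes were detected, with 115 for the probe at chr14:120803865-120803924 and 53.0 for the probe at chr14:120829956-120830015. The last of these also read 81.4 in WT cell 1. Both Mbnl differences came from KO cell 4 and fell to 0 without it.

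Celf1, the counterpart of the MBNL proteins, was detected in 2 WT and 2 KO cells, by different probes in different cells. The second probe, of highest mean signal, read 1504 in WT cell 3 and 5797 in KO cell 4 and the floor elsewhere. The third probe read 688 in WT cell 3, 486 in WT cell 4 and 958 in KO cell 1. The first probe was not detected in any cell. WT cell 3 was the only cell in which 2 Celf1 probes were detected together. The difference was 0.49 for the second probe, with SDs of 2.46 in WT and 3.43 in KO cells, -0.70 for the third, and -0.07 for the mean of all 3 probes, so the sign depended on the probe. It also depended on single cells, with -1.24 when KO cell 4 was left out and 1.69 when WT cell 3 was.

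**Figure D2:**
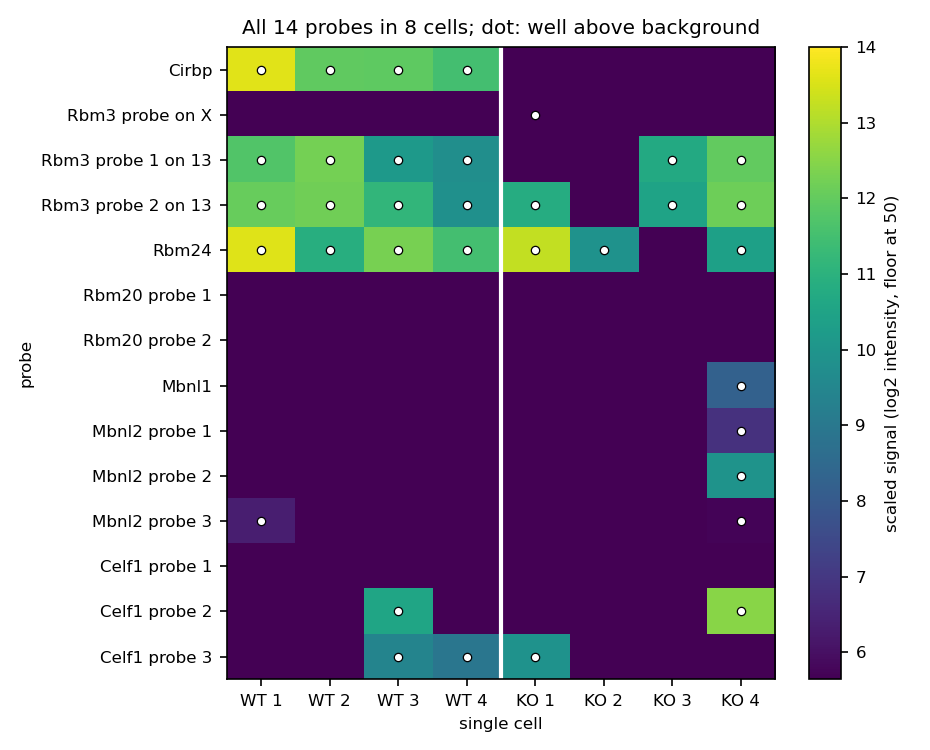
Scaled log2 signal (color, floor at 50) of all 14 probes (rows) in the 8 cells (columns), with a white line between genotypes and a dot where the probe was well above background. Cirbp, Rbm24 and both Rbm3 probes on 13 are detected in every WT cell, the Rbm3 probe on X in none, KO cells 2 and 3 hold 1 and 2 detected probes, and KO cell 4 holds 8.

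Detection of the 7 genes varied more between KO than between WT cells. WT cells 1 to 4 held 4, 3, 4 and 4 of the 7 genes, always including Cirbp, Rbm3 and Rbm24. KO cells 1 to 4 held 3, 1, 1 and 5 of them. By its selection, Cirbp counts in every WT cell and in no KO cell. KO cell 2 held Rbm24 alone and KO cell 3 held Rbm3 alone, and these are the arrays with the lowest share of probes above background. Their part in the Rbm3 and Rbm24 differences was not tested, while the values without them stand beside each gene. KO cell 4 held every gene except Cirbp and Rbm20. The absence of Cirbp from this cell was set by the selection and says nothing further. No probe of the 7 genes was detected in all 8 cells, 11 of the 14 were detected in at least 1 cell, and 4 were present (Cirbp, Rbm24 and both Rbm3 probes on 13).

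Probes of the same gene often disagreed within a cell. For Rbm3, both probes of a pair were detected in 33.3% of the 21 cases in which at least 1 of the pair was (7 cases). The count was 1 of 9 cases for Celf1 and 3 of 5 for Mbnl2. Over all 6573 genes with several probes it was 33.2% of 30789 cases, so the disagreement among these probes is near that of the array as a whole. The cases share cells and probes and are no independent counts. For Rbm3, most cases without both probes involved the probe on X, which was detected in 1 cell. The second probe on 13 was detected in 7 cells and the first in 6 of these 7.

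Read by the probe of highest mean signal, 1 of the 7 genes was at least 5-fold lower in KO cells (Cirbp) and 0 were at least 5-fold higher. Of the 12606 gene names detected in at least 1 cell, 6.16% were at least 5-fold lower and 1.63% at least 5-fold higher by the same measure. Among present probes the shares were 6.88% lower (514 of 7467) and 1.75% higher (131). Of the 6 genes other than Cirbp, 2 were lower (Rbm3 and Rbm24), 3 were higher (Mbnl1, Mbnl2 and Celf1) and Rbm20, not detected, stood at 0. Rbm3 and Rbm24 varied more between cells than most present probes. The median SD over all present probes was 0.74 in WT and 0.71 in KO cells, against SDs of 2.85 for Rbm3 and 3.13 for Rbm24 in KO cells, each with a KO cell at the floor.

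**Figure D3:**
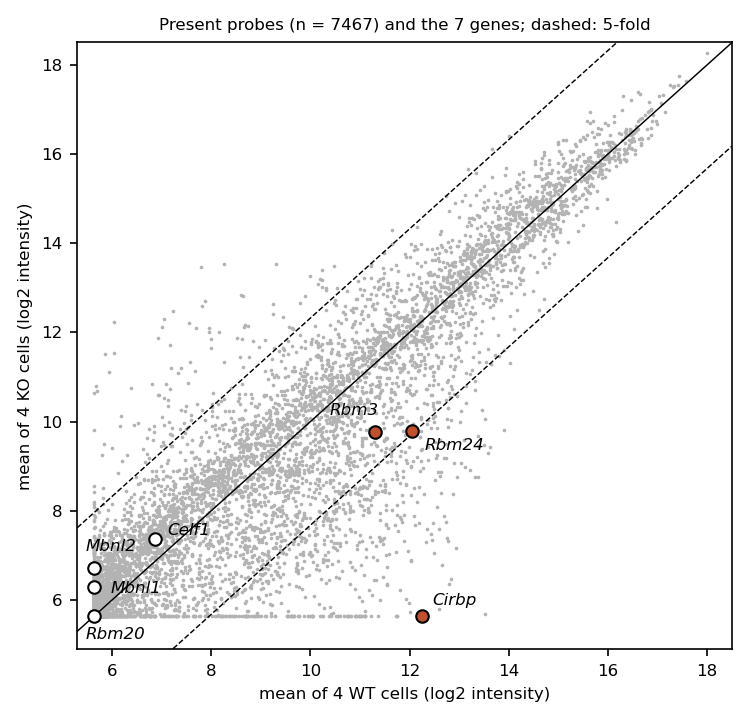
Mean log2 signal of 4 KO cells against that of 4 WT cells for the 7467 present probes (gray) and the 7 genes by their probe of highest mean signal (red, present; white, not present). The solid line marks equal signal and the dashed lines 5-fold; Cirbp lies at the floor of the KO axis, Rbm24 just inside the lower 5-fold line, and Rbm20 at the floor of both axes.

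Among 3556 genes with a present probe, the 5 whose pattern over the 8 cells was most like that of Cirbp were ranked by the mean absolute difference of log2 signals, each centered on its own mean. They were Snapc4, a subunit of the complex that activates small nuclear RNA genes (0.35), Sec31a, a COPII coat protein (0.38), Fbxo21, an F-box protein (0.41), Oxa1l, which inserts proteins into the inner mitochondrial membrane (0.44), and Slc25a13, the mitochondrial aspartate-glutamate carrier (0.59). By the probe compared, all 5 were detected in the 4 WT cells. In KO cells, Sec31a, Fbxo21 and Slc25a13 were detected in none, Snapc4 in 1 and Oxa1l in 2. Like Cirbp, Snapc4, Fbxo21 and Oxa1l were highest in WT cell 1, with signals of 12955, 10005 and 11589, whereas Sec31a and Slc25a13 were highest in WT cell 2, with 8628 and 8745. The likeness rests on 8 cells and is set largely by the KO cells at the floor.

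Transcripts of cold shock domain proteins and other RNA-binding proteins of related function were read as a list of 13, of which 12 were detected in at least 1 cell. By the probe of highest mean signal, 5 of the 12 were at least 5-fold lower in KO cells and 0 higher, 11 differences were negative and 1 positive, and the median was -1.65. Over all 12606 detected gene names, 6.16% were at least 5-fold lower and 1.63% higher, 42.8% of differences were negative and 31.3% positive, and the median was 0.00. Ybx3, a cold shock domain protein that binds DNA and RNA, read 25606, 8949, 20921 and 8714 in WT cells. It read 4816, 400, 8657 and 3888 in KO cells (-2.33). The groups did not overlap, but the highest KO cell (8657) lay just under the lowest WT cell (8714). All KO cells lay below all WT cells in 2.26% of present probes. Rbmx, Rbm4 and Carhsp1, named after their values were seen, were also among the 5, with differences of -4.28, -2.89 and -2.65, each with at least 3 KO cells at the floor. In WT cells, Carhsp1 was at the floor in 2 cells and Rbmx and Rbm4 in 1 each, and Rbm4 in KO cell 4 (4269) exceeded every WT cell (at most 3917). Rbmx was detected in 3 WT and 0 KO cells. The cell means of this list ran from 8.98 to 10.12 in WT and from 7.18 to 8.23 in KO cells on the log2 scale. Those of all detected gene names ran from 6.87 to 7.30 and from 6.75 to 6.99, and 25.9% of these names had a difference of 0. The list was thus brighter than the gene names it is set beside. A gene near the floor in WT cells cannot be 5-fold lower in KO cells. The shares over all detected gene names are therefore an unlike measure for this list. The list was also chosen with earlier results of these data known, so its counts and median are a description. Without KO cells 2 and 3 the median was -0.80. Ybx1, a major component of messenger ribonucleoproteins, was within 5-fold (-0.86), as was Lin28a (-1.42).

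Other regulators of muscle splicing, a list of 20 with 17 detected, held no common direction. There were 2 genes at least 5-fold lower and 2 higher, 6 negative and 8 positive differences, and a median of 0.00, beside 6.16% lower, 1.63% higher, 42.8% negative and 31.3% positive over all detected gene names. Rbpms2, an RNA-binding protein of smooth and cardiac muscle, read 4648, 5384, 7737 and 2930 in WT cells, 7920 in KO cell 3 and 9860 in KO cell 4, and the floor in KO cells 1 and 2 (-2.88). The KO cells thus either exceeded every WT cell or were at the floor. Its relative Rbpms (-2.78), Rbfox2 (3.30) and Tial1 (2.65) were named after their values were seen. By the probe of highest mean signal, Rbpms read 2690 in WT cell 3, 2087 in WT cell 4 and the floor elsewhere. Tial1 read 561 in WT cell 3, 3029 in WT cell 4, 16828, 2952 and 2648 in KO cells 1 to 3, and the floor elsewhere. Counting all probes, Rbpms and Tial1 were each detected in 4 WT and 4 KO cells. For Rbfox2, which governs alternative exons in heart and brain, the probe of highest mean signal read 9150 in KO cell 1 and 2571 in KO cell 4. It was at the floor in the other 6 cells, whereas counting both of its probes the gene was detected in 3 WT and 4 KO cells. Rbm38, also named after its values were seen, had the same detection as Cirbp, in 4 WT and 0 KO cells, but with signals of 425 in WT cell 1, 74.7 in WT cell 4 and the floor elsewhere (-0.92).

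Transcripts that CIRBP is known to bind, and that RBM20 and the MBNL and CELF proteins are known to splice, were read by level only, since these probes do not resolve exon choice. Of 4 transcripts known to be bound by CIRBP, 1 was at least 5-fold lower (Atr, the replication stress kinase, -2.76). Of their differences, 2 were negative and 2 positive. Over all detected gene names, 6.16% were at least 5-fold lower and 42.8% of differences were negative. A list of 4 genes is too short to be set against these shares. Atr read 1535 in WT cell 2, 3457 in WT cell 4 and the floor elsewhere, so WT cells 1 and 3 did not differ from KO cells. Of the others, Txn1, thioredoxin, differed by 1.41, with SDs of 2.93 in WT and 1.74 in KO cells. Clock, a core circadian gene, differed by -1.30 through WT cell 1 alone (1823), and Rpa2 by 0.02. Of 12 detected transcripts known to be spliced by RBM20, 1 was at least 5-fold lower (Lrrfip1, -2.94) and 9 differences were negative, with a median of -0.62 that ran from -1.41 to 0.21 when single cells were left out. A single gene of 12 is near the 6.16% of all detected gene names that were as much lower, and 42.8% of those names had a negative difference. However, 25.9% of those names had a difference of 0, as did 0 genes of this list. The cell means of this list also reached 9.87 in WT cells, against at most 7.30 for all detected names. These shares are therefore an unlike measure for this list too. Ttn, the titin gene and best known RBM20 target, was detected in all 8 cells and differed by 1.32, with SDs of 2.77 in WT and 1.14 in KO cells. Of 12 detected transcripts known to be spliced by MBNL or CELF proteins, 2 of which are Mbnl1 and Mbnl2 themselves, none reached 5-fold and the median was 0.25. Tnnt2, cardiac troponin T, whose fetal exon these proteins regulate, was detected in all 8 cells at a log2 signal of 16.12 ± 0.60 in WT and 16.85 ± 0.25 in KO cells.

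**Figure D4:**
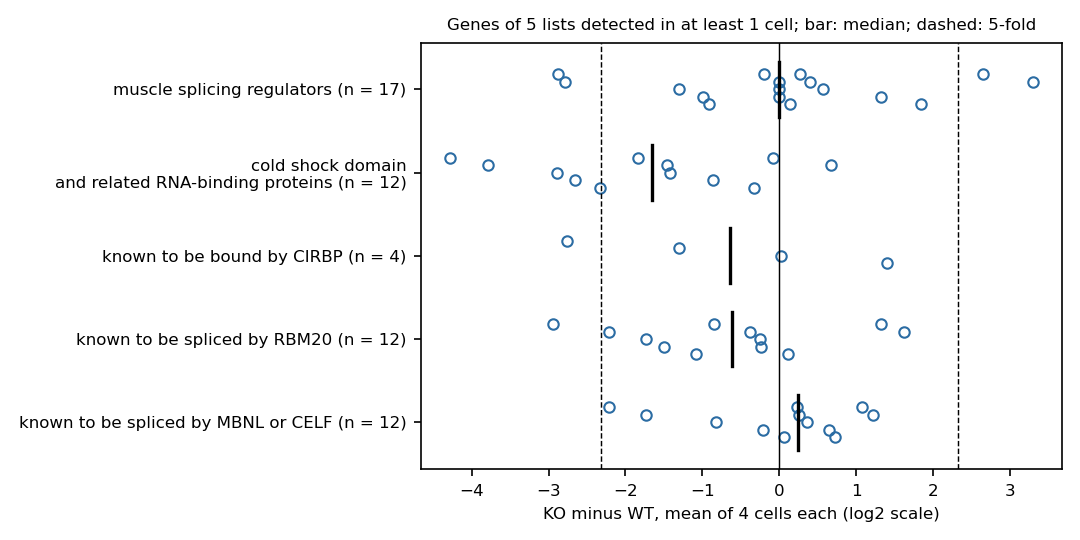
KO minus WT difference of the mean log2 signal (horizontal axis, 4 cells each) for the genes of 5 lists detected in at least 1 cell, with 1 point per gene, a bar at the median and dashed lines at 5-fold. The cold shock domain list has 11 of 12 points below 0, and the points of the muscle splicing regulators lie on both sides of 0. The lists were chosen with earlier results of these data known.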

How the data were processed

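The deposited files are scanner output of Agilent Feature Extraction 12.0.2.2, per the file headers, with 1 array per cell. The deposited intensity values are linear probe signals that the authors obtained with that software after its background correction, together with its detection flags. According to the methods, the authors amplified cDNA primed at the poly(A) tail and, in their own processing, set levels under 50 to 50 and scaled each chip on its 50th percentile. Here control and outlier spots (146 to 220 per array) were left out, spots of a probe were averaged as log2, and each array was shifted by -0.76 to 0.68 to a common 50th percentile over the 5301 probes well above background on all arrays, then floored at 50. A probe counted as detected when at least 50% of its spots were well above background. The size rule, 5-fold or 2.32 on the log2 scale, is the study's. Means were taken over cells without a test, with pandas 2.3.3, and the rule was tested on simulated data. The simulated spread between cells was smaller than the median SD of present probes. Changes were planted only in bright probes detected on all arrays, so the simulation does not cover genes with signal in some cells only. Limma 3.58.1 (normexp, quantile) served an alternative. For each gene the probe of highest mean signal was the main reading. Named genes were all members, the 5 patterns nearest to Cirbp, and list genes past 5-fold among present probes or of highest signal. Members and lists were chosen with earlier results of these data known. The results for some list genes are not reported here. Promoters are from RefSeq. The number of arrays limits the precision.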

Additional observations from a re-analysis of the deposited data

Results flagged for a closer look

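In 4 of the 9 groups of 4 cells whose values were not all equal, a single cell stood apart while the other 3 cells were at the floor. These were Mbnl1 in KO cell 4 (301), Mbnl2 in KO cell 4 (977), Celf1 in WT cell 3 (1504) and Celf1 in KO cell 4 (5797). Chance alone marks about 1 in 20 groups in this way when values are normally spread, which values at a floor are not.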

How the results depend on the processing

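Cirbp stayed lower in KO cells under all 18 alternatives, but it was selected on this difference, so its unchanged sign is no support. Its difference was -5.61 with a floor of 100, -11.17 with no floor, and -6.84 to -6.17 when a single cell was left out. Members at least 5-fold lower were 2 with the 50th percentile over all probes, with the 75th percentile or with no floor, and 1 to 3 with a cell left out (3 without KO cell 4). Members at least 5-fold higher were 1 with no floor, and 0 to 0 with a cell left out. Present probes at least 5-fold lower were 220 at 10-fold, 1010 with no detection filter, 874 with no floor, 90 among probes detected in all 8 cells, and 507 to 915 with a cell left out (915 without WT cell 1). Those higher were 53, 278, 240 and 47 under the same settings, 599 without KO cells 2 and 3, an alternative chosen after seeing the data, and 125 to 259 with a cell left out (259 without KO cell 2). Probes detected in all WT and no KO cells were 113 by the positive and significant flag, 140 without KO cells 2 and 3, and 90 to 231 with a cell left out. Without a floor Mbnl1 differed by 1.74 and Mbnl2 by 2.61. The cold shock list median stayed negative, from -2.09 to -0.80, but the list was chosen with earlier results of these data known. Scaling moved the median difference of probes detected in all 8 cells from 0.15 to between 0.00 and 0.45. No paired analysis was possible because the replicate numbers name cells without shared embryos and no result comes from a test. Signal below the floor has no order, so differences that involve floored cells, that of Cirbp included, are set in part by the floor.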

Other observations

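Several splicing regulators outside the 7 genes gave signal in cells of both genotypes without reaching 5-fold; they were named after their values were seen. Celf4, a relative of Celf1, was detected in all 8 cells, at 712, 414, 360 and 263 in WT cells and 423, 603, 758 and 437 in KO cells (a log2 difference of 0.40), so that the groups overlapped. Khdrbs1, a STAR family RNA-binding protein, was detected in 4 WT and 3 KO cells with nearly equal means (0.14). Qk, the quaking gene, was detected by its probe of highest mean signal in 3 WT and 4 KO cells (1.32), and by any of its 7 probes in 4 and 4. For Celf2 the same counts were 1 WT and 2 KO cells (1.85, with SDs of 1.88 and 3.27), and 2 and 2 by any of its 3 probes. The SDs of Celf2 exceeded its difference.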
